A study of Homo sapiens with 4 samples.

Results

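The TAM receptors are a family of 3 receptor tyrosine kinases, AXL, TYRO3 and MERTK, and their main ligands are the secreted proteins GAS6 and PROS1 (protein S). These 5 genes were chosen by name, their symbols were matched to NCBI Gene IDs, and all 5 were found in each of the 4 libraries, among 17490 genes listed in at least 1 library. Messenger RNA had been profiled in 2 established human lung adenocarcinoma lines that carry activating EGFR mutations: H1975, as cells labelled sensitive and cells labelled resistant to osimertinib, and HCC827, as cells labelled sensitive and cells labelled resistant to gefitinib. Both drugs inhibit the EGFR kinase. Each of the 4 groups had 1 library, without replicates. The sources used here do not say how the resistant cells were derived, whether they are 1 clone, or whether drug was present at harvest.

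GAS6 and PROS1 carry an amino-terminal Gla domain, in which glutamate residues are carboxylated in a vitamin K-dependent reaction and which binds phosphatidylserine on membranes, while their carboxy-terminal laminin G-like domains bind the receptors. GAS6 is a ligand of AXL, TYRO3 and MERTK, whereas PROS1 acts through TYRO3 and MERTK. Bound receptors signal through PI3K, PLCgamma and Grb2 adaptors. In macrophages MERTK is known for the uptake of apoptotic cells, and in EGFR-mutant lung cancer AXL is known as a receptor whose expression has been linked to drug tolerance and to mesenchymal states.

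Depth was 22145163 and 22217897 expected counts in the sensitive and resistant H1975 libraries and 10934558 and 11034837 in those of HCC827. Levels are given as FPKM, which corrects for transcript length and library total. Ratios compare normalised counts of the resistant with those of the sensitive library of a line, and values in brackets bound the 95% exact interval for counting error alone. A gene was considered with at least 1 FPKM and 20 counts in 1 library of the pair, and was called where it differed by at least 2-fold with an interval that excluded 0 on the log2 scale. Of 8 epithelial markers of lung adenocarcinoma, all 8 were called lower in resistant HCC827 cells. In resistant H1975 cells 4 of 7 considered were called lower. The share called lower over all genes considered was 11.0% in HCC827 and 8.56% in H1975. CDH1 was at 0.73 FPKM in resistant H1975 cells, and NKX2-1 and NAPSA were at 0.08 and 0.29 FPKM in resistant HCC827 cells. KRT19 was 69.8-fold lower in H1975 (15735 and 224 counts). KRT8 and KRT18 were at 353.93 FPKM or more in all 4 libraries. Whether these marker differences have a part in those of the TAM genes was not tested.

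Of the 5 genes, MERTK was the one called in the same direction in both lines, lower in the resistant library each time. AXL was higher in the resistant library of both lines, by 14.1-fold in HCC827 and by 1.995-fold in H1975, the latter just under the 2-fold limit. In H1975 none of the 5 was called higher and 2, MERTK and PROS1, were called lower, against 3.21% called higher and 8.56% called lower among 11872 genes considered. In HCC827 AXL, TYRO3 and GAS6 were called higher and MERTK lower, against 7.05% called higher and 11.0% called lower among 11890 genes considered. Across the genes considered in both lines, 0.985% were called higher in both and 3.49% lower in both. All 5 genes passed the limits on low values in both lines. MERTK in H1975 passed through the sensitive library only, as the resistant library had 0.26 FPKM and 19.33 counts.

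**Figure D1:**
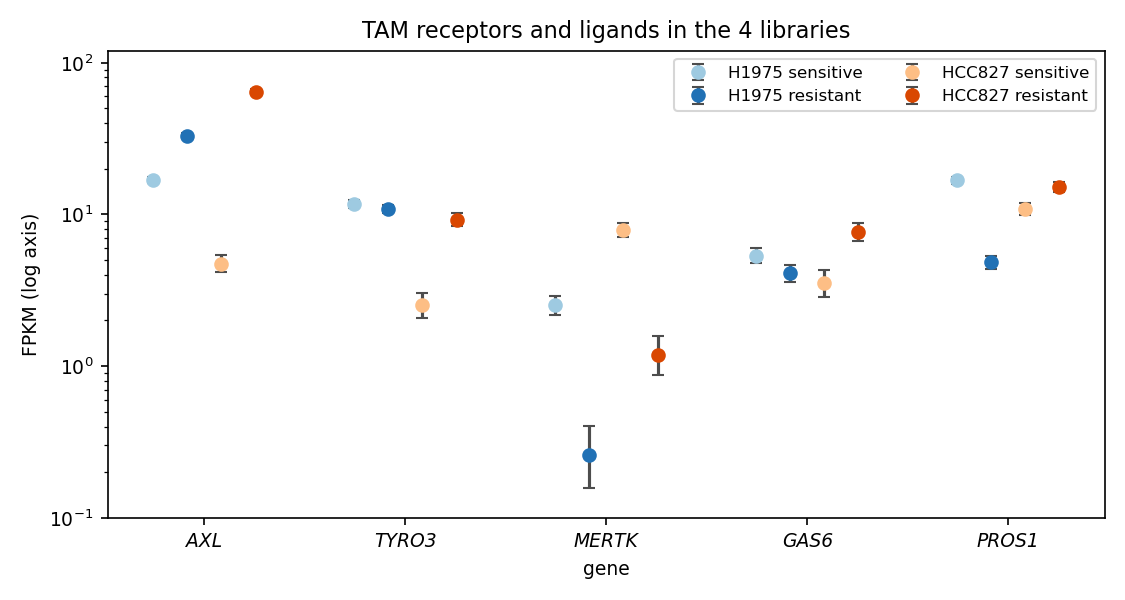
FPKM (log axis) of the 3 receptors and 2 ligands in each library, with 95% Poisson intervals of the counts as bars; each point is 1 library. AXL is highest in resistant HCC827 cells (64.51 FPKM) and MERTK lowest in resistant H1975 cells (0.26 FPKM).

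AXL (NCBI Gene 558, chromosome 19) encodes the receptor of the family with the highest affinity for GAS6. Its level was 16.85 FPKM [16.1, 17.7] in sensitive and 33.11 FPKM [32, 34.2] in resistant H1975 cells. In HCC827 it was 4.74 FPKM [4.15, 5.39] in sensitive and 64.51 FPKM [62.4, 66.7] in resistant cells. The sensitive libraries were thus both below the resistant ones, although the sensitive level was 3.55-fold higher in H1975 than in HCC827 and the resistant level 1.95-fold higher in HCC827 than in H1975.

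AXL counts in H1975 were 1754 (sensitive) and 3478.71 (resistant), which gives a log2 ratio of 1.0 [0.91, 1.08]. Of the genes considered in H1975, 96.7% had a lower ratio. Scaling by DESeq2 size factors (log2 ratio 1.01) or by TMM factors taken from all listed genes (1.02) brought AXL past the 2-fold limit in H1975, and scaling by library total alone (0.98) did not. In HCC827 AXL had 230.07 and 3397.29 counts, a log2 ratio of 3.82 [3.62, 4.02], which was above that of 99.1% of the genes considered. The difference between the lines in log2 ratio was 2.82 [2.61, 3.04].

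The files list the same 3 AXL transcripts in all libraries and give the gene a length averaged over them by estimated abundance. That mean length was 4658.77 bases in sensitive and 4687.23 in resistant H1975 cells, and 4410.2 in sensitive and 4733.84 in resistant HCC827 cells, so the sensitive HCC827 library stood below the other libraries in this measure. GENCODE release 29 pairs the listed transcripts with AXL-201 (4737 bases), AXL-202 (3206 bases) and AXL-203 (2557 bases). AXL-201 and AXL-202 start at 41219203 and 41219235 on chromosome 19 (GRCh38) and AXL-203 starts inside the gene at 41226755. No count per transcript was used here, and with 230.07 counts the sensitive HCC827 mean length rests on fewer reads than the others.

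The sequences before the AXL start sites are shown because the listed transcripts use separate starts, and that of MERTK because it is the gene called lower in both lines. They are RefSeq promoter sequences of the GRCh38.p14 build, plus strand, 5′ to 3′, up to 250 bases before the start and ended before the first exon that GENCODE annotates there. The internal AXL stretch overlaps no exon and lies within an AXL intron. Capitals mark matches on either strand to the motifs searched.
AXL first start, chr19:41218973-41219202: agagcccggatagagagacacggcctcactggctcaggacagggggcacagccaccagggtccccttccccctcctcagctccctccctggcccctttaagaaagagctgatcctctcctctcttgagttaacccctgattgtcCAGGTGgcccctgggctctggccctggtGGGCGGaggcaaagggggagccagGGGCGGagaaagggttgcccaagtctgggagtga
AXL internal start, chr19:41226505-41226754: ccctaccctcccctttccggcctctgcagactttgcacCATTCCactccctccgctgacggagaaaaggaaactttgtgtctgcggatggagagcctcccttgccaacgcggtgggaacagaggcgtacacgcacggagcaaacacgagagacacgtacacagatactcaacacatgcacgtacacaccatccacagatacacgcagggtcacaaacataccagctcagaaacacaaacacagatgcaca
MERTK start, chr2:111898357-111898478: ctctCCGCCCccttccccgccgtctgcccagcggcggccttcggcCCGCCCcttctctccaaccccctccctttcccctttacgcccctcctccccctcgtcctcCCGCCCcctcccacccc

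The motifs searched over the whole 250 bases before each start were TGANTCA (AP-1), GGAATG (TEAD), CACCTG (an E-box bound by ZEB and SNAI factors), GGGCGG (the GC box bound by SP1) and the LXR repeat, on both strands, none of which overlapped another in the stretches shown. The first AXL start had 2 GC boxes and 1 E-box, and the internal start had 1 TEAD motif. MERTK had 4 GC boxes, 3 of them in the stretch shown, and no match to the other motifs. TYRO3, with 2 start windows, had 3 GC boxes and 1 match to TGANTCA, with A in place of N, at the first. It had no match at the second. GAS6 had 3 GC boxes and 1 E-box, and PROS1 had 2 GC boxes. Of 35116 promoter windows of the same length, 42.6% held the GC box, 17.5% the E-box, 11.9% the TEAD motif, 6.57% the AP-1 motif and 0.0142% the LXR repeat. GC content was 78.8% before MERTK and 64.4% and 54.4% before the AXL starts, against a median of 58% over all windows. These matches describe letters in these windows only.

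TYRO3 (NCBI Gene 7301, chromosome 15) encodes the receptor of the family that is most abundant in the nervous system. Its level was 11.73 FPKM [11, 12.5] in sensitive and 10.9 FPKM [10.2, 11.6] in resistant H1975 cells, and 2.52 FPKM [2.07, 3.03] in sensitive and 9.22 FPKM [8.35, 10.2] in resistant HCC827 cells. The sensitive HCC827 library was thus the low one and the intervals of the H1975 libraries overlapped. The log2 ratio was −0.09 [−0.22, 0.04] in H1975, from 1044.99 and 976.02 counts. In HCC827 it was 1.82 [1.51, 2.13], from 111 and 410 counts, a 3.52-fold higher level in resistant cells. The lines differed by 1.91 [1.57, 2.25] in log2 ratio. The sensitive cells of H1975 exceeded those of HCC827 by 4.65-fold, whereas the resistant cells of the lines were 1.18-fold apart. TYRO3 was listed with 3 transcripts in H1975 and 1 in HCC827, so levels of the lines were estimated with different annotation. A pseudogene with near-identical sequence, TYRO3P, was not among the listed genes, and TYRO3 counts in H1975 were not whole, so a share of its reads may be assigned with uncertainty.

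MERTK (NCBI Gene 10461, chromosome 2) encodes the receptor known for the clearance of dying cells by phagocytes. Sensitive H1975 cells had 201 counts of it and resistant ones 19.33, while sensitive HCC827 cells had 316 and resistant ones 48. As levels these were 2.53 FPKM [2.19, 2.9] and 0.26 FPKM [0.157, 0.406] in H1975, and 7.91 FPKM [7.06, 8.83] and 1.19 FPKM [0.877, 1.58] in HCC827. Each resistant library lay below both sensitive ones, although MERTK was listed with 6 transcripts in H1975 and 1 in HCC827. MERTK was 10.5-fold lower in resistant H1975 cells (log2 ratio −3.39 [−4.16, −2.71]), and 1.9% of the genes considered had a lower ratio. In HCC827 it was 6.90-fold lower (−2.79 [−3.26, −2.35]), and 2.3% of the genes considered had a lower ratio. The difference between the lines was 0.61 [−0.24, 1.5] on the log2 scale, an interval that includes 0 but also differences above 2-fold. The resistant H1975 count of 19.33 limits the precision there.

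MERTK is also a macrophage gene, so macrophage and blood cell markers were set beside it. Of 10 such markers, CD163 and TYROBP were not among the genes listed in any of the 4 libraries, and AIF1 had 1 count in sensitive H1975 cells and was listed in no other. The summed level of the list was between 85.2 and 106 FPKM in the 4 libraries, of which CD68, a lysosomal protein that other cells also make, held 74.25 to 100.22 FPKM. In H1975 the receptor gene CSF1R was called lower (540 and 153 counts, 3.51-fold), as MERTK was. In HCC827 CSF1R had 32 and 29 counts and no marker of the list was called. The part of such cells in the MERTK values was not tested.

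**Figure D2:**
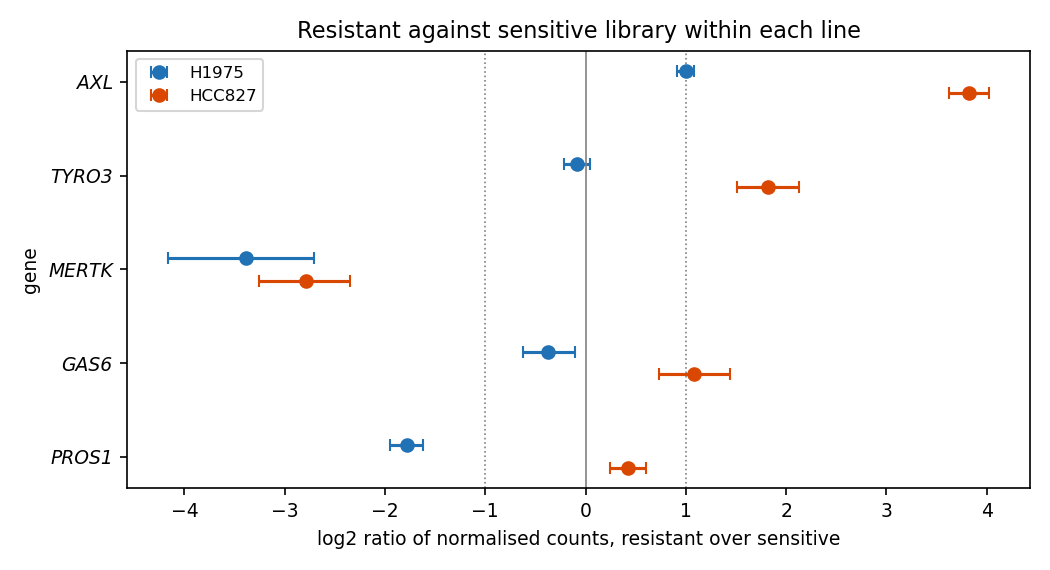
Log2 ratio of normalised counts, resistant over sensitive, for each gene in H1975 and HCC827, with 95% counting intervals; dotted lines mark 2-fold. MERTK is below −2 in both lines, and TYRO3, GAS6 and PROS1 lie on opposite sides of 0 in the 2 lines.

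GAS6 (NCBI Gene 2621, chromosome 13), the ligand of all 3 receptors, was listed with 1 transcript. It had 302 and 233 counts in sensitive and resistant H1975 cells (5.33 and 4.1 FPKM) and 98 and 217 counts in HCC827 cells (3.51 and 7.7 FPKM). Its log2 ratio was −0.37 [−0.62, −0.11] in H1975, under 2-fold. In HCC827 it was 1.08 [0.73, 1.44], a 2.11-fold higher level in resistant cells whose interval reached from 1.66-fold to 2.71-fold. The lines differed by 1.44 [1.01, 1.88]. An antisense gene, GAS6-AS1, overlaps GAS6 and was not listed in the files; whether counting used strand is not given, so reads of the pair cannot be told apart.

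PROS1 (NCBI Gene 5627, chromosome 3) encodes protein S, which is also a cofactor of activated protein C in blood. It had 1350 and 391 counts in sensitive and resistant H1975 cells (16.79 and 4.85 FPKM), a 3.43-fold lower level in resistant cells (log2 ratio −1.78 [−1.95, −1.62]). In HCC827 it had 433 and 609 counts (10.87 and 15.14 FPKM) and a log2 ratio of 0.42 [0.24, 0.6], which was not called. The lines differed by 2.2 [1.96, 2.45]. PROS1 has a pseudogene copy, PROS2P, which was not listed in the files; PROS1 counts were whole in all 4 libraries.

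The share of each receptor in their summed level differed between the libraries, and annotation and depth differ between the lines. Summed over the 3 receptors, the level was 31.1 FPKM in sensitive and 44.3 FPKM in resistant H1975 cells, and 15.2 FPKM in sensitive and 74.9 FPKM in resistant HCC827 cells. AXL made up 54.2% of this sum in sensitive and 74.8% in resistant H1975 cells, and 31.2% and 86.1% in HCC827 cells. MERTK made up 8.1% and 0.6% in H1975 and 52.1% and 1.6% in HCC827, so that sensitive HCC827 cells were the only library in which MERTK exceeded AXL. TYRO3 made up 37.7% and 24.6% in H1975 and 16.6% and 12.3% in HCC827. The receptor sum was higher in the resistant library of each line.

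**Figure D3:**
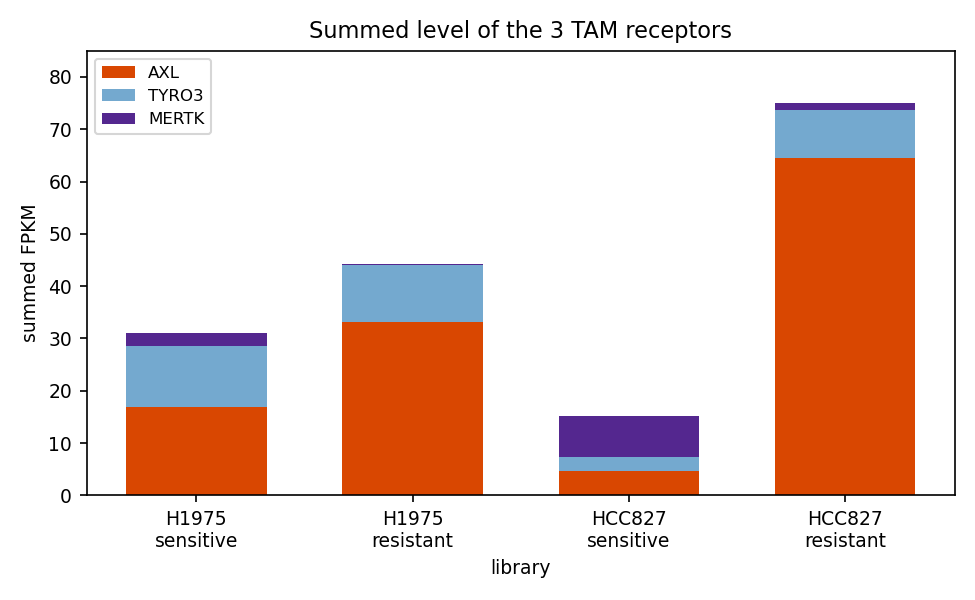
Summed FPKM of AXL, TYRO3 and MERTK in each library as stacked bars from 0. The sum is lowest in sensitive HCC827 cells (15.2 FPKM), where MERTK is the largest part, and highest in resistant HCC827 cells (74.9 FPKM), where AXL is 86.1%.

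The ligand sum went from 22.1 FPKM in sensitive to 8.95 FPKM in resistant H1975 cells and from 14.4 to 22.8 FPKM in HCC827 cells. Set against the receptors, it was 0.711 and 0.202 of the receptor sum in H1975 and 0.948 and 0.305 in HCC827. The ratio of ligand to receptor messenger RNA was thus lower in the resistant library of each line. PROS1 was lower and AXL higher in resistant H1975 cells, and AXL was higher in resistant HCC827 cells. PROS1 exceeded GAS6 in every library, and GAS6 made up 24.1% and 45.8% of the ligand sum in H1975 and 24.4% and 33.7% in HCC827. In order of level, AXL and PROS1 in sensitive H1975 cells (16.85 and 16.79 FPKM), PROS1 and GAS6 in resistant H1975 cells, AXL and GAS6 and then GAS6 and TYRO3 in sensitive HCC827 cells, and TYRO3 and GAS6 in resistant HCC827 cells were neighbours whose counting intervals overlapped. All other neighbours in the order were separated by their intervals.

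Among 58 human receptor tyrosine kinases, AXL ranked 9th in sensitive and 3rd in resistant H1975 cells by FPKM, behind MET (69.97 FPKM) and EPHB4 (42.2 FPKM) in the latter. In HCC827 it ranked 19th in sensitive and 3rd in resistant cells, behind EGFR (567.96 FPKM) and MET (256.84 FPKM). TYRO3 ranked 11th and 10th in H1975 and 24th and 16th in HCC827. MERTK ranked 24th and 28th in H1975 and 16th and 23rd in HCC827, where 22 to 27 of the kinases reached 1 FPKM in a library. Of the 27 considered in H1975, 1 was called higher and 9 lower (median log2 ratio −0.47). Of the 27 considered in HCC827, 4 were called higher, AXL and TYRO3 among them, and 8 lower (median −0.44). By ratio, the lists were led by EPHA1, an ephrin receptor gene (at least 222-fold lower), and ERBB3, an EGFR relative (47.1-fold lower), in H1975, and by EPHB3 (93.9-fold lower) and EPHA1 (57.7-fold lower) in HCC827. The median over all genes considered was 0.00 in each line. Of those genes, 3.21% were called higher and 8.56% lower in H1975, and 7.05% higher and 11.0% lower in HCC827.

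**Figure D4:**
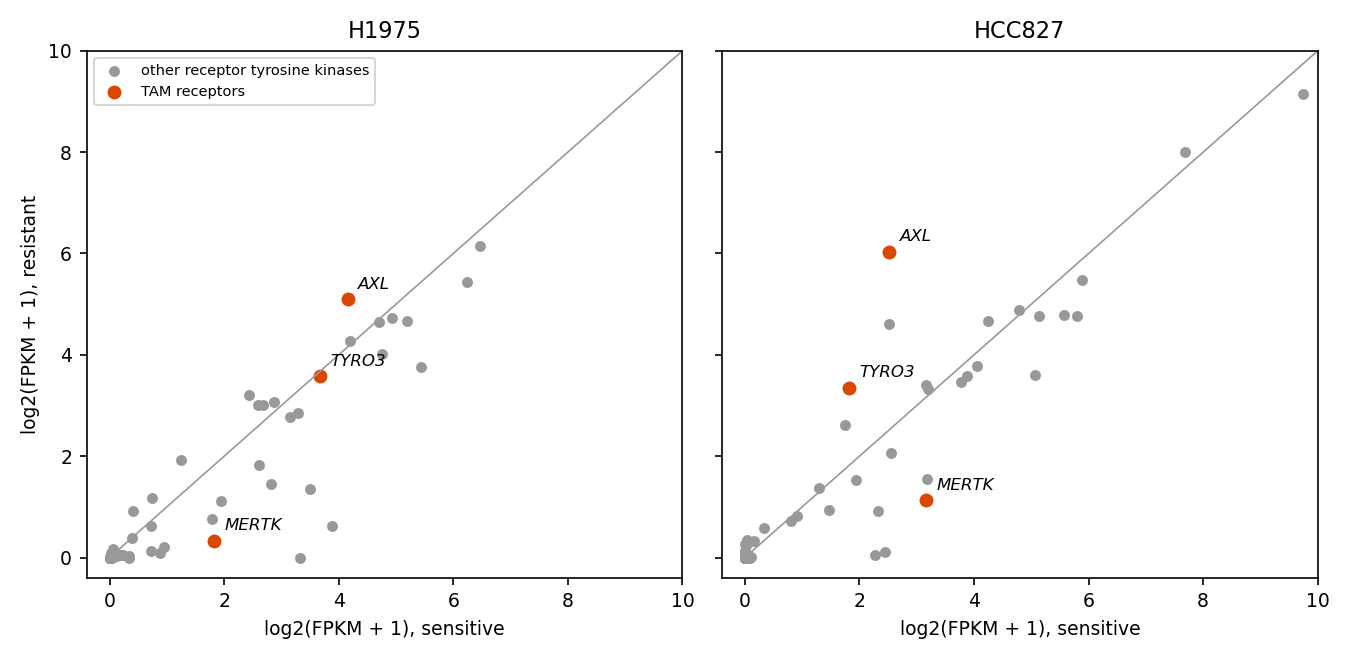
Level of 58 receptor tyrosine kinases as log2(FPKM + 1) in the sensitive (x axis) and resistant (y axis) library of each line; each point is 1 gene and the line marks equal levels. AXL lies above the line in both panels and MERTK below it in both, and TYRO3 lies above it in HCC827 and close to it in H1975.

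The 2 lines were then taken as replicates in edgeR's quasi-likelihood test with the line as a block and Benjamini-Hochberg adjustment over 13036 genes. No gene passed an adjusted p of 0.05 (0.0% called), with 1352 genes (10.4%) at an unadjusted p below it, whereas DESeq2 called 113 genes higher (0.825%) and 335 lower (2.45%). MERTK was lower in 2 of 2 lines, with a log2 fold change of −3.05 and an adjusted p of 0.146 in edgeR and 8.61e-06 in DESeq2. AXL was higher in 2 of 2 lines, with a log2 fold change of 2.40 and an adjusted p of 0.407 in edgeR and 0.00111 in DESeq2. TYRO3 (log2 fold change 0.86, adjusted p 0.637 in edgeR), GAS6 (0.36, 0.826) and PROS1 (−0.66, 0.738) passed with neither tool. Each had ratios of opposite sign in the 2 lines, but the counting interval of TYRO3 in H1975 (−0.22 to 0.04) included 0. With 4 libraries, these p-values rest on 2 lines whose labels name different drugs, and separate cultures are not described. Both tools take part of the spread assumed for a gene from other genes, so the p-values do not measure its own spread alone.

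The ligands are carboxylated in the secretory pathway, with vitamin K as cofactor. Of 6 genes of this maturation, CALU, VKORC1 and AIFM2 were called higher in resistant HCC827 cells, and none was called in H1975. AIFM2 lay at the 2-fold limit in HCC827 (97 and 204 counts, 2.01-fold). Among all genes considered, 7.05% were called higher and 11.0% lower in HCC827, and 3.21% higher and 8.56% lower in H1975. The difference between the lines was not tested. VKORC1, which recycles vitamin K for the carboxylation of GAS6 and PROS1, had 185 and 423 counts in HCC827 (2.18-fold) and 1636 and 2002 in H1975 (1.23-fold). CALU, a reticulum protein that inhibits the carboxylase, had 2907 and 6716 counts in HCC827 (2.20-fold). GGCX, the carboxylase itself, had log2 ratios of −0.44 in HCC827 and 0.05 in H1975. Among 12 other Gla domain genes few were expressed. MGP (5.88-fold) and PRRG2 (4.83-fold) led 3 of 4 called lower in H1975, and PRRG2 (2.86-fold) and PRRG4 (2.19-fold) were the 2 considered and called lower in HCC827.

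Shedding and adaptor genes act on the receptors after synthesis. Over all genes considered, 11.8% were called in either direction in H1975 and 18% in HCC827. ADAM10 and ADAM17, the proteases that release the AXL and MERTK ectodomains, had log2 ratios between −0.31 and 0.21 in the 2 lines. Of 11 shedding genes, 10 were considered in each line and RHBDF1, which encodes a pseudoprotease of the rhomboid family, was the only one called, lower by 3.46-fold in H1975 and 2.46-fold in HCC827. Of 30 adaptor and signalling genes, 29 were considered in each line. In H1975 the exchange factor gene VAV3 was called lower (163 and 3 counts, log2 ratio −5.76 [−8.05, −4.18]) and none higher. In HCC827 SOCS1, a suppressor of cytokine signalling (4.60-fold), and TNS2, a tensin reported to bind AXL (3.03-fold), were called higher and VAV1 lower (3.04-fold). The list medians were −0.07 in H1975 and −0.10 in HCC827. GRB2, the adaptor shared by many receptors, had log2 ratios of −0.10 and −0.11.

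Phosphatidylserine is the membrane lipid that the ligands bridge to the receptors. For comparison, 3.21% of all genes considered were called higher and 8.56% lower in H1975, and 7.05% higher and 11.0% lower in HCC827. Of 7 genes for its exposure, none of 6 considered was called in H1975. In HCC827 the flippase gene ATP8A1 was called higher (3.08-fold) and 2 were called lower. Of 17 other phosphatidylserine receptors and bridging proteins, 8 were considered in H1975, with 1 called higher and 3 lower, and 11 in HCC827, with 1 higher and 2 lower. ITGB3, an integrin subunit that with ITGAV binds the bridging protein MFGE8, had 837 and 228 counts in H1975 (3.65-fold lower) and 14 and 145 in HCC827 (9.88-fold higher). MFGE8 was 2.51-fold lower in H1975, and LGALS3, a galectin reported to bind MERTK, was 3.11-fold lower in HCC827 and 2.12-fold lower in H1975.

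Of 19 factors reported to act on AXL transcription, 2 of 17 considered were called higher in H1975 and none lower. In HCC827, 4 of 18 were called higher and 2 lower. The shares over all genes considered were 3.21% higher and 8.56% lower in H1975, and 7.05% higher and 11.0% lower in HCC827. ZEB1 and ZEB2, repressors of epithelial genes, were called higher in both lines: ZEB1 had 220 and 1106 counts in H1975 (5.06-fold) and 55 and 361 in HCC827 (6.26-fold), and ZEB2 had 83 and 526 in H1975 (6.37-fold) and 5 and 172 in HCC827 (32.8-fold). SNAI2, a repressor of the Snail family, was 13.6-fold higher in HCC827, and in H1975 it had a log2 ratio of −0.85. TEAD4 was 2.19-fold higher in HCC827, and YAP1 had log2 ratios of 0.41 in H1975 and −0.47 in HCC827. The genes called lower in HCC827 were FOS and MZF1. FOSL1 and JUN, components of AP-1, were not called in either line. The list medians were 0.00 in H1975 and −0.14 in HCC827. Of 7 nuclear receptors reported to regulate MERTK, PPARD was called lower in H1975 (3.32-fold) and none was called in HCC827. NR1H3, which encodes LXR alpha, had log2 ratios of −0.27 and 0.28.

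Protein-coding genes next to each member in the RefSeq order, 2 on each side, were read for the same comparison. Of these 20 neighbours, 11 were considered in H1975, with 1 called higher and 1 lower. In HCC827 10 were considered, with none higher and 2 lower. All genes considered had 3.21% called higher and 8.56% lower in H1975, and 7.05% higher and 11.0% lower in HCC827. HNRNPUL1, beside AXL, had log2 ratios of 0.31 in H1975 and −0.01 in HCC827. CYP2S1, on the other side of AXL, was called lower in HCC827 (log2 ratio −1.43 [−1.63, −1.24]). TMEM87B, beside MERTK, had 1416 and 786 counts in H1975 (−0.84 [−0.97, −0.71]) and 706 and 224 in HCC827 (−1.72 [−1.95, −1.51]), and was called in HCC827. ANAPC1, on the other side of MERTK, had log2 ratios of −0.02 and 0.16. Near GAS6, TMEM255B was lower (−2.15 [−2.67, −1.66]) and RASA3 higher (1.29 [1.01, 1.57]) in H1975. RPAP1 and MGA, beside TYRO3, were not called in either line.

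The genes whose pattern was most like that of each receptor were found by Euclidean distance over the 4 libraries between log2(FPKM + 1) profiles centred on their own mean, among 10952 other genes considered in both lines. Nearest to AXL were C1R (distance 0.506) and C1S (0.659), which encode proteases of the complement C1 complex, and ABCA3 (0.708), a lipid transporter gene. C1R had 15.81 and 20.46 FPKM in sensitive and resistant H1975 cells and 4.66 and 55.39 FPKM in HCC827 cells. Nearest to TYRO3 were P3H2 (0.106), PPIF (0.125) and SERPINB7 (0.181). In HCC827 their log2 ratios were 1.42, 1.42 and 3.7, against 1.82 for TYRO3. SERPINB7 was at 0.13 FPKM in sensitive HCC827 cells. Nearest to MERTK were MYO6 (0.168), an unconventional myosin gene, NGEF (0.322) and MPP7 (0.337), a polarity scaffold gene. In H1975 the log2 ratios of MYO6, NGEF and MPP7 were −1.63, −1.49 and −1.79, against −3.39 for MERTK. In HCC827 they were −2.36, −2.72 and −2.17, against −2.79 for MERTK. MYO6 had 8.53 and 2.73 FPKM in H1975 and 22.39 and 4.54 FPKM in HCC827. With 4 libraries such a distance describes these profiles only, and annotation and depth differ between the lines. Adding 1 FPKM shrinks differences at low levels, so a small distance does not mean a similar ratio there.

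**Figure D5:**
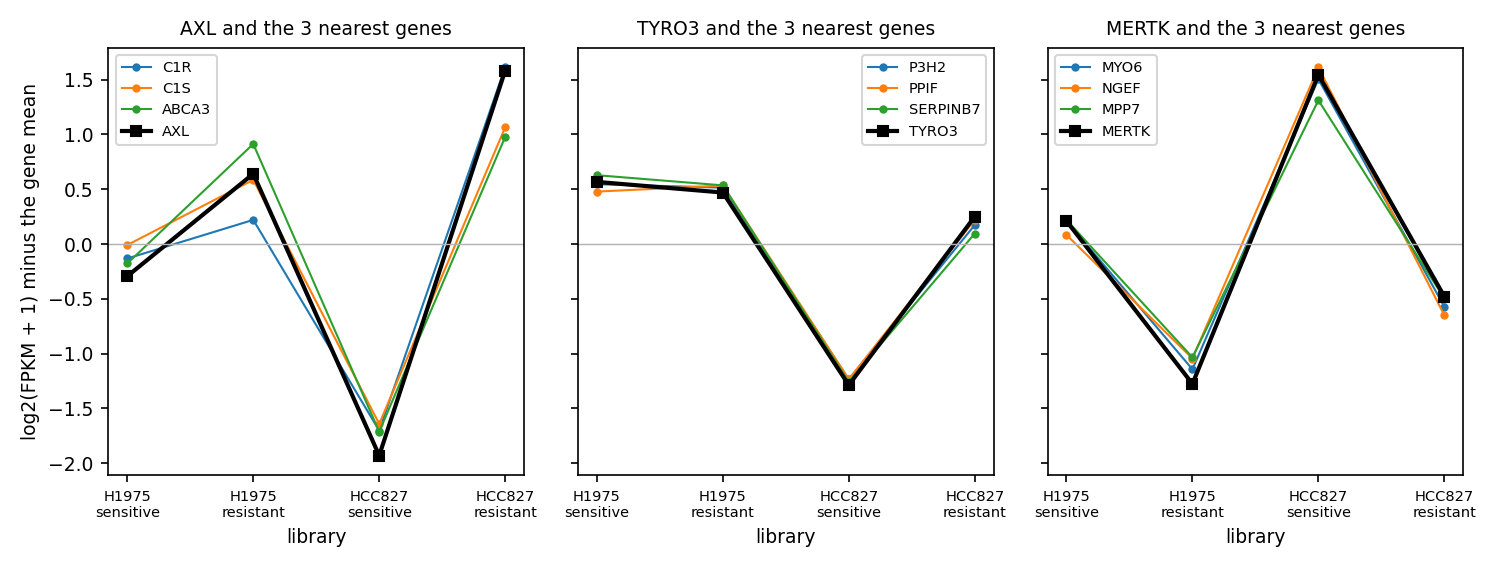
Log2(FPKM + 1) minus the mean of the gene over the 4 libraries, for each TAM receptor (black squares) and the 3 genes nearest to it; lines join the values of 1 gene and imply no order of libraries. AXL and its nearest genes are lowest in sensitive HCC827 cells, and MERTK and its nearest genes are highest there.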

How the data were processed

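RNA came from a TRIzol extraction and went into an MGIEasy mRNA library preparation, per the labels' protocols. The deposited expected counts are RSEM estimates per NCBI Gene ID and are not normalized, and the deposited FPKM values were scaled by the authors by transcript length and library total. The length column of the deposited files was used as given. HISAT2, Bowtie2 and RSEM with hg19 are named per the submitters' processing notes; no version is named there. H1975 files list predicted transcript models and HCC827 files do not, so annotation and depth differ between lines but not within a pair. Genes absent from a file were set to 0.

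Expected counts were rounded. Scaling within a pair used TMM factors of edgeR 4.0.16 from the genes considered (1.005 and 0.995 in H1975, 0.981 and 1.019 in HCC827). Ratios used no prior count, with Clopper-Pearson intervals of the conditional binomial, and levels have exact Poisson intervals; without molecular identifiers these cover counting error only. A library at 0 was set to 3 counts, or to 0.01 FPKM where larger. Differences between lines used the conditional odds ratio. Resistant and sensitive libraries of both lines were compared by edgeR's quasi-likelihood test (TMM, filterByExpr) over genes listed in all 4 files, with DESeq2 1.42.0 as an alternative. Each resistant library was paired with the sensitive library of its own line. The edgeR quasi-likelihood procedure was tested on simulated data, and DESeq2 was not. Symbols and gene order came from RefSeq (GRCh38.p14), whose coordinates are given only for the promoter sequences.

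The members and lists were chosen with earlier results of these data known. Named genes are the 5 members, the 2 called members of each list with the largest ratio per line, 2 neighbours per side, the 3 nearest genes per receptor, and receptor tyrosine kinases next to a member in the order of levels. Some genes that this rule selects are not reported here. AIFM2, CD68, GGCX, GRB2, ADAM10, ADAM17, TNS2, ZEB1 in HCC827, YAP1, FOS, FOSL1, JUN, MZF1, TEAD4, SNAI2, VKORC1 and LGALS3 in H1975, NR1H3, CSF1R in HCC827, CD163, TYROBP, AIF1, MET in resistant H1975 cells, EGFR in resistant HCC827 cells, KRT8, KRT18, and the related genes TYRO3P, PROS2P and GAS6-AS1 were named outside this rule, after their values were seen. Fibroblast markers had 1 of 2 considered called higher in HCC827 (LUM, 3 and 66 counts) and none of 1 considered in H1975. Of the endothelial markers CDH5, the 1 considered in H1975, was called there (9.35-fold lower), and none was considered in HCC827. Over all genes considered, 7.05% were called higher and 11.0% lower in HCC827, and 3.21% higher and 8.56% lower in H1975. Lists with 1 or 2 genes considered cannot be set against these shares.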

Additional observations from a re-analysis of the deposited data

Results flagged for a closer look

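TYRO3, GAS6 and PROS1 had ratios of opposite sign in the 2 lines, and the difference was not tested because 4 libraries leave no replicate for it. The log2 ratio in HCC827 minus that in H1975 was 1.91 for TYRO3, 1.44 for GAS6 and 2.2 for PROS1. The counting intervals of these differences excluded 0, while the interval of the TYRO3 ratio in H1975 (−0.22 to 0.04) did not.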

How the results depend on the processing

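With 1 library per group, counting error is the only error that could be estimated within a line, and variation between cultures, clones and library preparations was not measured. Small counts (MERTK at 19.33 in resistant H1975 cells) widen the counting intervals. No replicate could be left out within a group. AXL in H1975 lay at the 2-fold limit, and the number of the 5 genes called higher there was 1 under DESeq2 size factors, 1 under TMM factors from all listed genes (chosen after seeing the data) and 1 at a 1.5-fold limit. On the log2(FPKM + 1) scale MERTK was −1.49 in H1975 and −2.02 in HCC827, PROS1 −1.6 in H1975 and AXL 3.51 in HCC827, nearer 0 by construction of the pseudocount. At a 1.5-fold limit 1105 and 1754 genes were called higher and lower in H1975 and 1816 and 2269 in HCC827. At a 4-fold limit these were 97 and 457 in H1975 and 309 and 458 in HCC827, with 1 of the 5 genes called lower in each line (MERTK in both) and 1 higher in HCC827 (AXL). Without the filter on low values 585 and 1551 genes were called in H1975. In the test over both lines DESeq2 gave 113 and 335 calls, with AXL at 2.43 and MERTK at −3.05; the cause of the difference from edgeR was not tested. Without the replicate block by line, edgeR called no gene (307 at an unadjusted p below 0.05), and MERTK had an adjusted p of 1.0 and AXL likewise. Leaving out 1 line leaves the ratio of the other, with no test. TYRO3 then ranged from −0.09 (without HCC827) to 1.82 and GAS6 from −0.37 (without HCC827) to 1.08. PROS1 ranged from −1.78 to 0.42 (without H1975). Each of TYRO3, GAS6 and PROS1 changed sign, while AXL ranged from 1.0 to 3.82 and MERTK from −3.39 to −2.79. Rescaling FPKM to the same sum in each library moved the log2 level of AXL in resistant HCC827 over resistant H1975 cells from 0.96 to 1.05.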
